A study of Mus musculus with 6 samples.

Results

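GATA factors and their FOG cofactors were followed through RNA sequencing of common myeloid progenitors, the fetal blood precursors that can give rise to erythroid, megakaryocytic, granulocytic and monocytic cells. The genes were Gata1, Gata2, Gata3, Zfpm1 (which encodes FOG1) and Zfpm2 (which encodes FOG2), taken as the rows whose Ensembl identifier maps to these symbols, 5 of 24815 genes in all. The mutant group, libraries C, D and Q, came from C57BL/6 embryos at E13.5 (embryonic day) with both copies of the Gata2 -77 enhancer, an element upstream of Gata2, deleted. The wild-type group, libraries A, F and L, came from C57BL/6 embryos of the same stage with the enhancer intact. Both groups were fetal liver cells sorted as c-Kit+, CD34+, Fc receptor low and Sca-1-, and as negative for lymphoid markers (CD3, CD4, CD5, CD8 and B220), for Gr-1 of granulocytes, TER-119 of erythroid cells, and CD48 and CD41. The labels do not state whether each library is a separate embryo or a pool, so the p-values below measure only the spread between these samples.

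GATA factors are zinc finger proteins that bind the DNA motif they are named for. GATA2 acts in blood stem and progenitor cells and in mast cells, GATA1 takes its place on many shared sites as erythroid and megakaryocytic cells mature, and GATA3 is known for T cells and innate lymphoid cells. The FOG proteins carry many zinc fingers, do not need to bind DNA themselves, and act by holding on to the amino-terminal finger of a GATA factor, with FOG1 bringing in the NuRD deacetylase complex.

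The deleted enhancer lies upstream of Gata2, while Gata1 and Zfpm1 lie on other chromosomes. Whether it acts on genes other than Gata2 was not tested. The promoters of the members were searched for motifs, and those of the genes whose levels separated the groups are printed below. Each is the 250 bases before the gene's RefSeq start in GRCm38.p6, 5′ to 3′ on the gene's own strand. Capitals mark matches to GATA or its reverse complement TATC, and to CACCC or its reverse complement GGGTG, a motif bound by KLF factors. The Gata2 stretch, chr6:88193641-88193890 on the plus strand, lies before the distal of its first exons. The Gata1 stretch is chrX:7967911-7968160 on the minus strand, and the Zfpm1 stretch is chr8:122281891-122282140 on the plus strand.
Gata2: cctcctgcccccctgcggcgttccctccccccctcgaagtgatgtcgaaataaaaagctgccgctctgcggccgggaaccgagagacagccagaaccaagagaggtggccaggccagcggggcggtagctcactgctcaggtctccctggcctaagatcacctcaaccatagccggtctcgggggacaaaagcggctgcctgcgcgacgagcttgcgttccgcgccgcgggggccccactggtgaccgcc
Gata1: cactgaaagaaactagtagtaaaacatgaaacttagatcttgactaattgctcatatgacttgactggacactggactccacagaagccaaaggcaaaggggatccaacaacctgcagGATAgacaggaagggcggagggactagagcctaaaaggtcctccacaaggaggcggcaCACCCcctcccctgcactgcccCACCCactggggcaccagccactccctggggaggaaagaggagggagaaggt
Zfpm1: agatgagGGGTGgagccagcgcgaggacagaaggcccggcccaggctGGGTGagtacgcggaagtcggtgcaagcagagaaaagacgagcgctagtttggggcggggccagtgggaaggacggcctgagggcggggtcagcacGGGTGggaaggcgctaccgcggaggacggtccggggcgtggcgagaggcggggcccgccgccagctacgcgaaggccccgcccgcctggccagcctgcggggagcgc
The Gata1 window held 1 GATA or TATC match and 2 CACCC matches, the Zfpm1 window held 0 and 3, and the Gata2 window held 0 of both. The window of Gata3, whose levels overlapped between the groups, held 0 and 3, the same as that of Zfpm1. The window before the proximal Gata2 start of RefSeq, chr6:88198414-88198663, held 0 GATA or TATC matches and 1 GGGTG match. GENCODE M21 puts the proximal start upstream of this window, at 88198334, so by that annotation the window lies after the start. Among 32851 promoter windows of this length, 53.6% held GATA or TATC and 52.0% held CACCC or GGGTG. GATA with A or T before it and A or G after it, on either strand, was in 26.5% of the windows and in 0 of the 3 printed above. A match describes letters in the window and is not a measured binding site.

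Depth was 14800563, 19155874 and 30596279 expected counts in mutants C, D and Q, and 21509720, 14473913 and 15365999 in wild types A, F and L. Mutant C stood apart from the other libraries. Its counts sat on shorter genes, with a mean gene length weighted by counts of 1781 bases, against 2834 to 3124 bases in the other 5 libraries, and its scaling factor (TMM) was 0.614, against 1.06 to 1.17. The fitted changes of the members are therefore given with and without it. Of 13 genes of common and granulocyte-monocyte progenitors none was at 0 in any library, with Mpo (myeloperoxidase) at 1691 to 2354 CPM in mutants and 2078 to 3131 CPM in wild types, and Cd3e of T cells was at 0 in all 6. Transcripts of Cd48, whose protein the sort gated against, stood at 122 to 446 CPM in mutants and 90.1 to 114 CPM in wild types.

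Gata2, Gata1 and Zfpm1 were lower in all 3 mutants than in any wild type, whereas Gata3 overlapped between the groups and Zfpm2 was at or near 0 throughout. Gata1 fell furthest, to 3.28% and 4.76% of the wild-type mean in mutants D and Q, while Gata2 kept 24.8% and 26.8% there and Zfpm1 33.4% and 34.9%. In the edgeR fit of all 6 libraries these 3 genes missed the threshold, an adjusted p of 0.05, and without mutant C all 3 fell. Values per library below are CPM, which put the counts of every library on 1 scale after TMM normalization, and levels of different genes are compared only in TPM, which corrects for gene length.

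**Figure D1:**
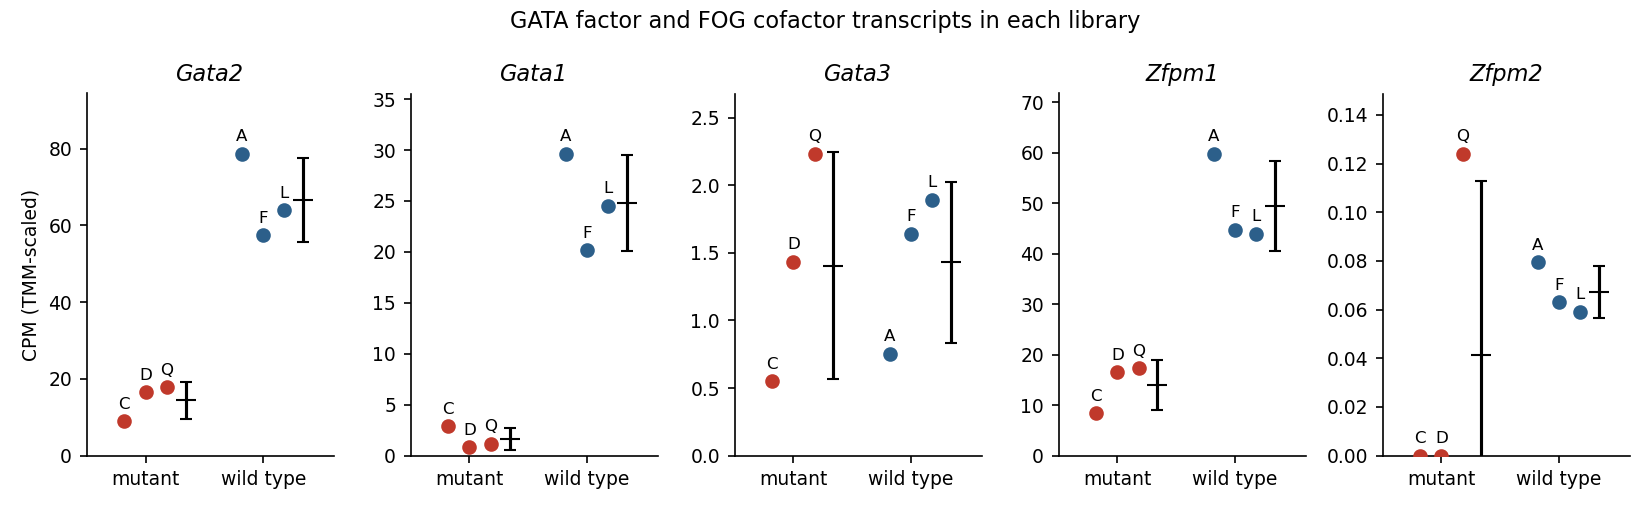
Each point is 1 library's CPM, with mutants on the left (C, D, Q) and wild types on the right (A, F, L). Horizontal marks with bars are the mean and SD of 3 libraries. Gata2, Gata1 and Zfpm1 show a gap between the groups, Gata3 shows none, and Zfpm2 lies below 0.2 CPM in every library.

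Gata2 (ENSMUSG00000015053, chromosome 6, 88193891 to 88207032, plus strand of mm10), the gene whose enhancer was deleted, had 8.92, 16.5 and 17.8 CPM in mutants C, D and Q, against 78.6, 57.4 and 63.9 CPM in wild types A, F and L. The highest mutant lay well under the lowest wild type, with means of 14.4 ± 4.80 CPM in mutants and 66.6 ± 10.9 CPM in wild types (SD, n = 3 each). The mutants thus kept 13.4%, 24.8% and 26.8% of the wild-type mean, and transcripts remained in every one, from 81 to 575 expected counts. In TPM the levels were 1.85, 9.92 and 9.58 in mutants and 53.1, 34.6 and 37.9 in wild types. Among genes detected in the same library this put Gata2 at the 41.0 to 53.9 percentile in mutants and at the 73.6 to 81.0 percentile in wild types, so it stayed a gene of middling abundance in the mutants. The log2 change, mutant over wild type, was -2.20 (standard error 0.30, 95% interval -2.91 to -1.48), 4.59-fold lower, at an adjusted p of 0.068 (edgeR, quasi-likelihood F test, adjusted over all genes). Without mutant C it fell 3.91-fold (log2 change -1.97, standard error 0.15, adjusted p = 0.0019).

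The deposited files list 2 Gata2 transcripts, and in GENCODE M21 one begins at the distal first exon, at 88193891, and the other 4443 bases downstream, at a proximal first exon. The proximal transcript is the longer one, 3571 bases against 3135 in that annotation, so the deposited gene length, which RSEM weights by transcript abundance, moves with their balance. It was 3133, 3160 and 3160 bases in mutants C, D and Q, against 3199, 3178 and 3162 bases in wild types A, F and L. All 6 values lie nearer to the shorter, distal form than to the proximal one. The mutant values lie below the wild-type values, but Q and L differ by less than the wild types differ among themselves, and no test was made.

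Gata1 (ENSMUSG00000031162, chromosome X, 7959260 to 7978071, minus strand), the regulator of erythroid and megakaryocytic maturation and of mast cells, had 2.86, 0.813 and 1.18 CPM in mutants C, D and Q, against 29.6, 20.2 and 24.5 CPM in wild types A, F and L. The groups were far apart, and the highest mutant was C, with means of 1.62 ± 1.09 CPM in mutants and 24.8 ± 4.73 CPM in wild types (SD, n = 3 each). The mutant values rest on 26, 17 and 38 expected counts and the wild-type values on 745, 320 and 414. Relative to the wild-type mean the mutants held 11.6%, 3.28% and 4.76%, a smaller remainder than that of Gata2 in each of the same libraries. The log2 change was -4.06 (standard error 0.47, 95% interval -5.19 to -2.92), 16.7-fold lower, with an edgeR adjusted p of 0.054, and it was the 17th lowest of 12222 tested genes. Without mutant C Gata1 fell 24.3-fold (log2 change -4.61, standard error 0.25, adjusted p = 6.6e-04 by edgeR). In bulk RNA, fewer cells that express Gata1 and less Gata1 RNA in each cell cannot be told apart, and the same holds for each gene here.

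Gata3 (ENSMUSG00000015619, chromosome 2, 9857078 to 9890034, minus strand), the GATA factor of T cells and innate lymphoid cells, had 0.551, 1.43 and 2.23 CPM in mutants C, D and Q, against 0.755, 1.64 and 1.89 CPM in wild types A, F and L. The groups overlapped, with mutant C lowest and mutant Q highest. The group means were 1.41 ± 0.841 CPM in mutants and 1.43 ± 0.598 CPM in wild types (SD, n = 3 each). The log2 change was 0.08 with a 95% interval of -1.24 to 1.39 (edgeR adjusted p = 0.94), and 0.39 with an interval of -0.61 to 1.40 without mutant C (edgeR adjusted p = 0.77), so with all libraries, at 5 to 72 counts in each, a difference of 2-fold either way lay within the interval. The 2 genes of the files that overlap Gata3 were at 0 counts in every library. Of 14 genes of T cells and innate lymphoid cells 0 of 8 tested were called by edgeR in either fit (2 at an unadjusted p under 0.05 with all 6 libraries, 1 without mutant C, 0 called by DESeq2 and 1 by limma-voom). Their summed level was 8.09 to 23.4 TPM in mutants and 28.7 to 30.1 TPM in wild types, with Cd3e and Cd2 at 0 in every library. Their part in the Gata3 values was not tested.

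Zfpm1 (ENSMUSG00000049577, chromosome 8, 122282141 to 122337251, plus strand), which encodes the GATA1 partner FOG1, had 8.37, 16.5 and 17.3 CPM in mutants C, D and Q, against 59.8, 44.7 and 44.0 CPM in wild types A, F and L. No mutant reached a wild type, and C was the lowest mutant, as for Gata2. Means were 14.1 ± 4.94 CPM in mutants and 49.5 ± 8.91 CPM in wild types (SD, n = 3 each). The remainder was 16.9%, 33.4% and 34.9% of the wild-type mean, above that of Gata2 in each of the same libraries. The log2 change was -1.80 (standard error 0.31, 95% interval -2.55 to -1.06), 3.49-fold lower, with an edgeR adjusted p of 0.16. Without mutant C Zfpm1 fell 2.95-fold (log2 change -1.56, standard error 0.15, edgeR adjusted p = 0.0059). The deposited files list a coding Zfpm1 transcript, 3390 bases in GENCODE M21, and a processed transcript of 865 bases. The deposited gene length lay between them, at 1500, 2190 and 2096 bases in mutants C, D and Q and 2019, 2046 and 1976 bases in wild types A, F and L. Zfpm1 values here and below count both forms, and the level of the coding form alone was not tested. GENCODE M21 places Gm20388 across the whole Zfpm1 gene on the same strand, with 0 exon bases shared. Gm20388 had 514, 2021 and 2778 expected counts in mutants C, D and Q and 2133, 1458 and 1696 in wild types A, F and L, more than Zfpm1 in each library. Its part in the Zfpm1 values was not tested.

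Zfpm2 (ENSMUSG00000022306, chromosome 15, 40655035 to 41104592, plus strand), whose product FOG2 is best known as the GATA4 partner of the heart, had 0, 0 and 4 expected counts in mutants C, D and Q, against 2, 1 and 1 in wild types A, F and L. All are too few for a comparison, and the gene did not pass the filter on low counts. A count of 0 allows up to 3 counts, or 0.330 CPM in mutant C and 0.143 CPM in mutant D, counting error only. FOG transcripts in these progenitors were therefore almost entirely those of Zfpm1 in both genotypes.

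**Figure D2:**
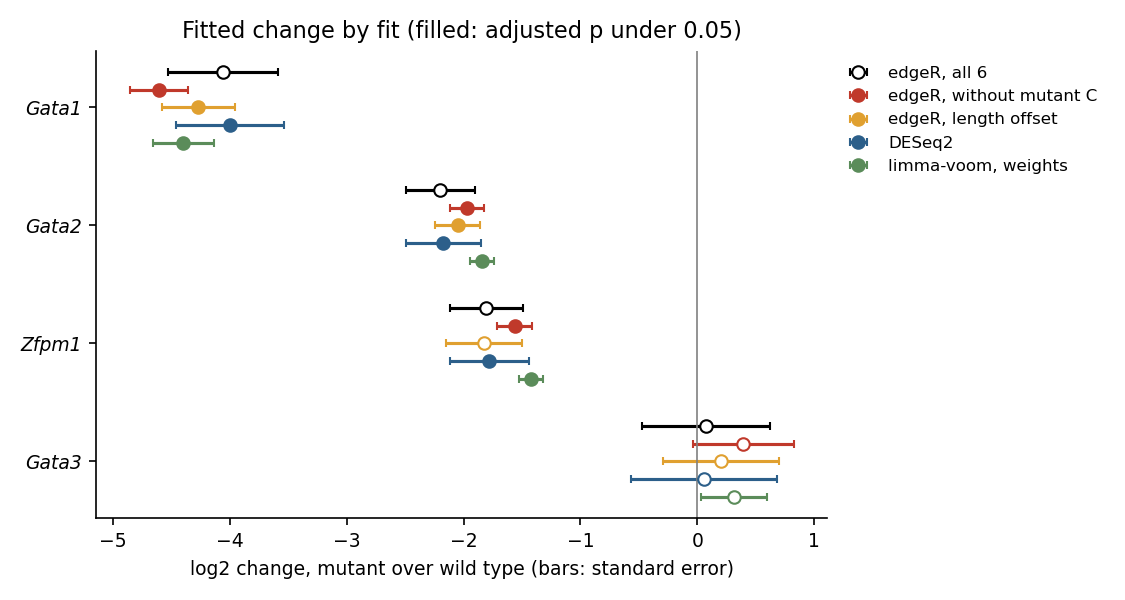
Horizontal axis, log2 change of mutant over wild type, with the standard error as bars, for the 4 genes that passed the filter. Colours are fits and filled points have an adjusted p under 0.05. Gata1 lies between -4.61 and -4.0, Gata2 between -2.20 and -1.84 and Zfpm1 between -1.83 and -1.42, filled in some fits and open in others, while Gata3 lies between 0.05 and 0.39 and is open in all.

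With all 6 libraries 0 of the 4 tested genes were called by edgeR, although 3 had an unadjusted p under 0.05, and over all genes 0.155% were called in either direction. Without mutant C, Gata1, Gata2 and Zfpm1 fell, against 0.761% of all genes called as lower and 0.84% called in either direction. DESeq2 and limma-voom with sample weights, on all 6 libraries, called the same 3 genes lower, against 0.532% and 2.27% of all genes. An edgeR fit with an offset for gene length called Gata1 and Gata2 lower, against 0.434% of all genes, as did a fit with no filter on low counts, against 0.19%. All mutants lay below all wild types for these 3 genes and for 11.4% of all genes tested. The median log2 change of all genes was -0.02.

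The 5 genes kept the same order of level in all 6 libraries, from Zfpm1 at the top through Gata2, Gata1 and Gata3 to Zfpm2, in TPM. This order counts both listed forms of Zfpm1, and may not hold for its coding form alone. Zfpm1 had 3.66, 14.4 and 14.1 TPM in mutants C, D and Q and 64.4, 42.1 and 42.0 TPM in wild types A, F and L, which overlaps the spread of Gata2 within each genotype. Gata1 had 0.98, 1.12 and 1.22 TPM in mutants and 35.4, 20.9 and 25.2 TPM in wild types, where its highest value passed the lowest of Gata2. Gata3 had 0.11, 0.85 and 1.18 TPM in mutants, so that its range met that of Gata1 there, and 0.51, 0.98 and 1.1 TPM in wild types, where it was far below Gata1. Gata1 and Gata3 thus met in the mutants and stood apart in the wild types.

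Summed over Gata1, Gata2 and Gata3, GATA transcripts came to 2.94, 11.9 and 12.0 TPM in mutants C, D and Q, against 89.0, 56.5 and 64.1 TPM in wild types A, F and L. No mutant approached a wild type. The difference in mean log2 TPM was -3.17, or 9.02-fold lower, with an exact two-sided permutation p of 0.10, the smallest that 3 against 3 libraries allow. Without mutant C it was -2.51, or 5.70-fold lower. FOG transcripts summed to 3.66, 14.4 and 14.1 TPM in mutants and 64.4, 42.1 and 42.1 TPM in wild types, 5.29-fold lower (exact permutation p = 0.10), or 3.38-fold lower without mutant C. TPM of mutant C ran low for uncalled genes too. The 15 genes of NuRD and of the CtBP corepressors, described below, summed to 997 TPM in C, against 2006 to 2300 TPM in the other libraries. Their median log2 change, fitted on counts, was 0.02. A low TPM sum in mutant C, here or in the lists below, therefore cannot be read as lower expression alone.

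The makeup of the GATA sum also differed. Gata2 made up 62.9%, 83.4% and 80.0% of it in mutants C, D and Q, against 59.7%, 61.2% and 59.1% in wild types A, F and L. Gata1 made up 33.3%, 9.42% and 10.2% in mutants and 39.8%, 37.0% and 39.2% in wild types. Every mutant lay below every wild type in its Gata1 share, with C closest to the wild types and D and Q close to each other. Gata3 made up 3.74%, 7.15% and 9.85% in mutants, against 0.573%, 1.74% and 1.72% in wild types, a larger share of a much smaller sum at a similar level of its own.

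**Figure D3:**
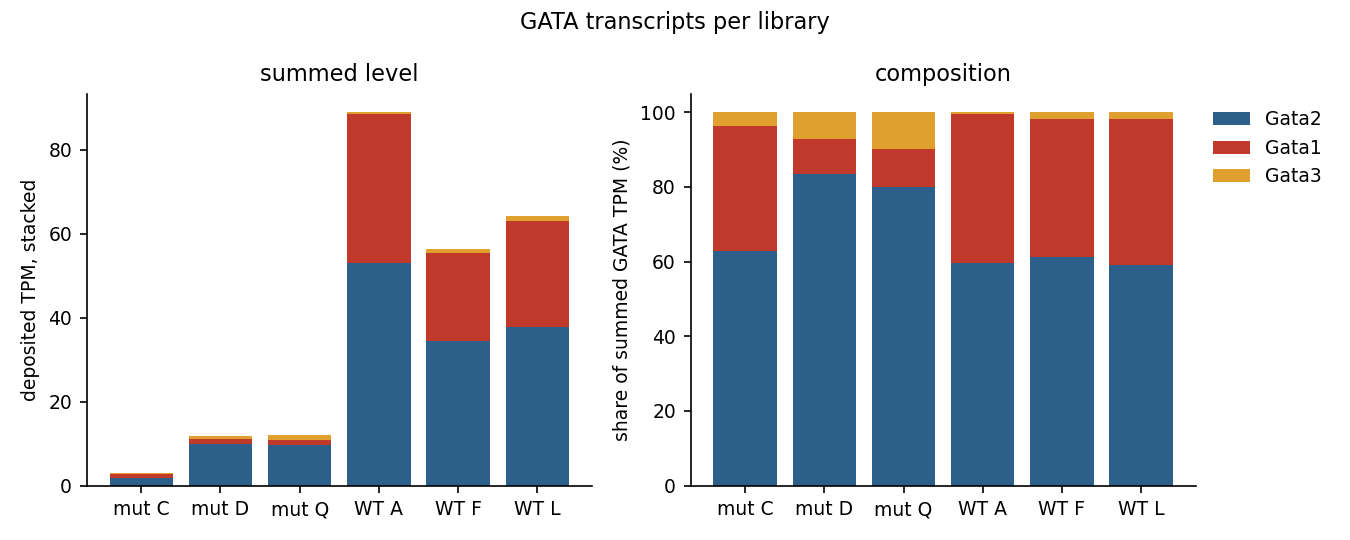
Stacked bars of Gata2, Gata1 and Gata3, with 1 bar per library, mutants on the left. The left panel gives deposited TPM and the right panel each gene's share in percent of the sum. The mutant bars reach 2.94 to 12.0 TPM and the wild-type bars 56.5 to 89.0 TPM, and the Gata1 share is smallest in mutants D and Q.

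Ratios within a library, taken after 0.1 TPM was added to each gene, were compared for 4 pairs together with the 2 sums, 6 tests in all. Such ratios cancel the scaling between libraries, apart from the part of the added 0.1 TPM. They do not cancel a shift with gene length, and the counts of mutant C sat on shorter genes. Deposited lengths in C were 1902 bases for Gata1, 3133 for Gata2 and 1500 for Zfpm1. The part of length in the ratios and shares of mutant C was not tested. Gata1 to Gata2 was 0.554, 0.122 and 0.136 in mutants C, D and Q and 0.667, 0.606 and 0.665 in wild types A, F and L. The wild types were nearly alike, and mutant C lay nearer to them than to the other mutants, with a mean log2 difference of -1.62, and -2.32 without mutant C. Zfpm1 to Gata1 was 3.48, 11.9 and 10.7 in mutants and 1.82, 2.01 and 1.67 in wild types, a log2 difference of 2.06 (2.63 without mutant C). Zfpm1 transcripts, counted over both listed forms, thus outnumbered those of Gata1 by more in each mutant. Zfpm1 to Gata2 was 1.93, 1.45 and 1.46 in mutants and 1.21, 1.22 and 1.11 in wild types, the smallest shift of the 4 pairs at a log2 difference of 0.44 (0.31 without mutant C). Gata3 to Gata2 was 0.108, 0.0948 and 0.132 in mutants and 0.0115, 0.0312 and 0.0316 in wild types, a log2 difference of 2.30 (2.32 without mutant C). Gata3 in mutant C was at 0.11 TPM, so the added 0.1 TPM raises the ratio there. With 0.01 TPM added instead, the log2 difference was 2.13. In none of the 4 ratios did the groups overlap, and each had an exact permutation p of 0.10, also after Benjamini-Hochberg adjustment over the 6 tests, the smallest this design allows.

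Calls among the partners with which GATA factors bind DNA, such as TAL1, LMO2 and LDB1, depended on the fit. Of 10 tested partner genes 0 were called by edgeR with all 6 libraries (3 at an unadjusted p under 0.05, 1 called by DESeq2 and 3 by limma-voom), and 2 fell without mutant C. These were Klf1, an erythroid activator, and Gfi1b, a repressor of erythroid and megakaryocytic cells. Klf1 had 2.42, 1.1 and 0.837 CPM in mutants C, D and Q and 8.99, 6.81 and 6.99 CPM in wild types A, F and L (log2 change -2.49, edgeR adjusted p = 0.15, against -3.0 and 0.0035 without mutant C). Gfi1b had 4.96, 9.47 and 11.5 CPM in mutants and 18.4, 17.9 and 20.8 CPM in wild types (log2 change -1.12, edgeR adjusted p = 0.58, against -0.86 and 0.035 without mutant C). Tal1, the bHLH factor of the complex, stood at 38.1, 61.9 and 57.2 CPM in mutants and 77.0, 83.7 and 76.3 CPM in wild types and was not called (log2 change -0.59, edgeR adjusted p = 0.58, against -0.42 and 0.090 without mutant C). The median log2 change of the partners was -0.37, beside -0.02 for all genes, and without mutant C -0.11, beside -0.01. Over all genes, edgeR without mutant C called 0.761% lower, DESeq2 0.532% and limma-voom 2.27%. For 5 of the 10 partners all mutants lay below all wild types, beside 11.4% of all genes.

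Genes of the machinery that FOG1 and GATA1 bring to DNA did not pass the test. Of 15 genes of NuRD and of the CtBP corepressors 0 were called by edgeR in either fit, 0 had an unadjusted p under 0.05 in either, and DESeq2 and limma-voom called 0. With all 6 libraries their log2 changes ran from -0.35 to 0.40, with outermost 95% interval bounds of -1.41 and 1.02. Without mutant C they ran from -0.07 to 0.16, with outermost bounds of -0.27 and 0.48. Rbbp4, a histone chaperone subunit of NuRD, had 880, 552 and 564 CPM in mutants C, D and Q and 463, 559 and 578 CPM in wild types A, F and L, with C the highest value. Of 7 coactivators, among them Ep300 and Smarca4, 0 were called in either edgeR fit, 0 had an unadjusted p under 0.05 and 0 were called by DESeq2 or limma-voom, with log2 changes of -0.50 to -0.26 with all libraries, 7 of 7 below 0, and of -0.15 to 0.02 without mutant C. Of 12 genes whose products modify, protect or degrade GATA proteins, 0 were called by edgeR in either fit (0 and 1 at an unadjusted p under 0.05) and 0 by DESeq2 or limma-voom, with log2 changes of -0.47 to 1.05 with all libraries and of -0.16 to 0.37 without mutant C. Of 4 further genes with a GATA-type finger only Trps1, a repressor, passed the filter, at 12.6, 44.0 and 38.1 CPM in mutants C, D and Q and 41.6, 41.8 and 36.2 CPM in wild types A, F and L, and it was not called.

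Genes known as targets of GATA1 or GATA2 were lower where they were called by edgeR. The target lists overlap with the partner and marker lists, and they contain Zfpm1 (GATA1 list) and Gata1 and Gata2 themselves (GATA2 list). Of 25 tested GATA1 targets 4 fell with all 6 libraries, the integrin gene Itga2b, the platelet glycoprotein gene Gp5, the erythropoietin receptor gene Epor and the erythroid nuclear protein gene Hemgn, and 9 fell without mutant C, beside 0.147% and 0.761% of all genes. The 9 include Zfpm1 itself, and Klf1 and Gfi1b of the partner list. They also include Itga2b, Gp5, Gp1ba and Vwf, which are counted again in the megakaryocyte list below. The median log2 change of the GATA1 targets was -0.78 with all libraries and -1.16 without mutant C, and all mutants lay below all wild types for 14 of the 25, beside 11.4% of all genes. The log2 change was below 0 for 19 of 25 with all libraries and 24 of 25 without mutant C, and the highest were 0.93 and 0.39. DESeq2 called 8 lower and limma-voom 13 lower, beside 0.532% and 2.27% of all genes, and neither called any higher. Epor had 0.661, 0.478 and 0.651 CPM in mutants C, D and Q, against 6.60, 3.97 and 4.26 CPM in wild types A, F and L (log2 change -3.05, edgeR adjusted p = 0.044, and -3.11 without mutant C). Itga2b, whose product CD41 the sort gated against, had 7.82, 7.94 and 8.12 CPM in mutants and 37.4, 26.2 and 30.7 CPM in wild types (log2 change -1.98, edgeR adjusted p = 0.032, and -1.98 without mutant C).

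Of 19 tested GATA2 targets 1 fell with all 6 libraries, Samd14, a sterile alpha motif protein of the stress response in red cell precursors, and 8 fell without mutant C, beside the same 0.147% and 0.761% of all genes. The 8 include Gata1 and Gata2 themselves. They also include Cpa3, Hdc, Ms4a2 and Il1rl1, which are counted again in the mast cell list below. Samd14 had 0.771, 0.621 and 0.527 CPM in mutants C, D and Q, against 14.7, 10.7 and 11.5 CPM in wild types A, F and L (log2 change -4.31, edgeR adjusted p = 0.012, and -4.44 without mutant C). Il1rl1, the interleukin 33 receptor of mast cells, had 0.220, 1.63 and 1.21 CPM in mutants and 23.9, 15.3 and 18.6 CPM in wild types, and fell without mutant C (log2 change -3.80, edgeR adjusted p = 0.0014, against -4.10 and 0.054 with all libraries). Kit, the stem cell factor receptor used in the sort, had 102, 292 and 270 CPM in mutants and 330, 337 and 317 CPM in wild types and was not called. The median of the list was -0.57 with all libraries and -0.23 without mutant C, and all mutants lay below all wild types for 11 of the 19, beside 11.4% of all genes. The log2 change was below 0 for 15 of 19 in each fit, and the highest were 0.64 and 0.95. DESeq2 called 7 lower, and limma-voom called 9 lower and 1 higher, beside 0.532% and 2.27% of all genes called lower.

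**Figure D4:**
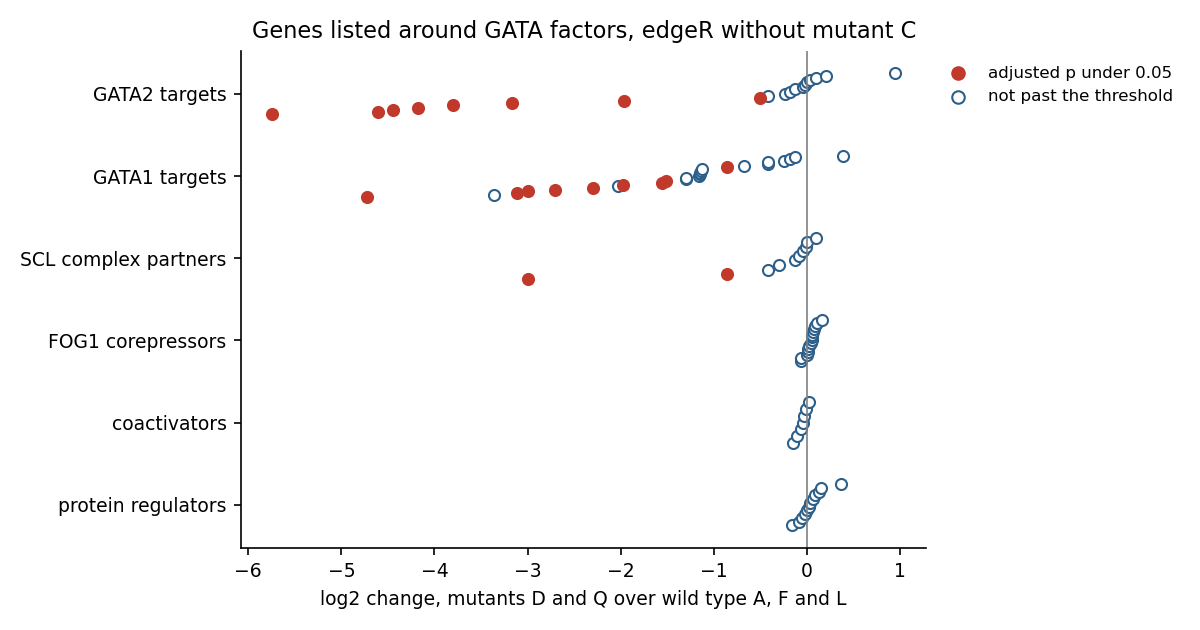
Horizontal axis, log2 change of mutants D and Q over wild types A, F and L by edgeR without mutant C. Each point is 1 gene of the list named at the left, filled where the adjusted p is under 0.05. The GATA1 and GATA2 target lists spread to the left, to -4.72 and -5.74, 2 partner genes lie below -0.8, and corepressors, coactivators and protein regulators stay within 0.4 of 0.

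Markers of the mast cell, megakaryocyte and erythroid branches were measured in the same libraries. Of 12 mast cell and basophil genes, 0 of 6 tested were called by edgeR with all 6 libraries (5 at an unadjusted p under 0.05, 5 called by DESeq2 and 5 by limma-voom) and 5 fell without mutant C, beside 0.761% of all genes. Their summed level was 12.2 to 14.9 TPM in mutants and 149 to 187 TPM in wild types, with the mature mast cell protease genes Tpsb2, Cma1 and Mcpt4 at 0 in every library. The tested gene that did not fall was Mcpt8, with 5.07, 1.15 and 1.33 CPM in mutants C, D and Q and 1.27, 1.01 and 1.18 CPM in wild types A, F and L. Its log2 change was 1.02, and 0.09 without mutant C, and edgeR called it in neither fit. Of 13 megakaryocyte genes 3 of 10 tested fell with all libraries, beside 0.147% of all genes, and 6 fell without mutant C, beside 0.761%, with a summed level of 18.8 to 60.9 TPM in mutants and 113 to 130 TPM in wild types. The 14 erythroblast genes summed to 2261, 941 and 807 TPM in mutants C, D and Q and 2120, 2549 and 1247 TPM in wild types A, F and L, so that the groups overlap through mutant C, with D and Q below every wild type. With all libraries edgeR called 0 of 12 (5 at an unadjusted p under 0.05), DESeq2 called 3 lower, and limma-voom called 4 lower and 1 higher. Without mutant C 1 of 13 fell by edgeR, beside 0.761% of all genes, and 12 had an unadjusted p under 0.05. The median log2 change of the list was -1.15, against -0.57 with all libraries. Hbb-y was among the 12 but was higher, with a log2 change of 1.37 (3.07 with all libraries). It had 21.7, 3.11 and 2.39 CPM in mutants C, D and Q and 1.79, 0.378 and 0.829 CPM in wild types A, F and L. The part of these cells in the Gata1, Gata2 and Zfpm1 values was not tested.

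Other cell types were measured by the same lists. Of 13 hepatoblast genes edgeR called 0 in either fit (7 at an unadjusted p under 0.05 with all libraries and 9 without mutant C), DESeq2 called 4 as higher, and limma-voom called 1 higher and 1 lower. Their median log2 change was 2.59 with all libraries and 2.39 without mutant C, while their summed levels overlapped, at 168 to 688 TPM in mutants and 271 to 401 TPM in wild types. Apoe weighed on these sums, at 40.5 to 80.1 TPM in mutants and 149 to 248 TPM in wild types. It was lower, and was among the 9 genes above. The log2 change was below 0 for 2 of 13 genes with all libraries and 1 of 13 without mutant C. Of 7 endothelial genes edgeR called 0 in either fit (2 and 3 at an unadjusted p under 0.05), as did DESeq2, and limma-voom called 2 lower. The 10 endothelial genes listed summed to 191 to 266 TPM in mutants and 250 to 256 TPM in wild types. Of 6 macrophage genes edgeR called 0 in either fit (0 and 1 at an unadjusted p under 0.05), and the other 2 tools called 0, with the 10 listed summing to 40.6 to 121 TPM in mutants and 90.5 to 116 TPM in wild types. Of 14 mesenchymal genes 1 was tested and not called (0 and 1 at an unadjusted p under 0.05), and they summed to 1.48 to 9.22 TPM in mutants and 10.4 to 11.1 TPM in wild types. Of 10 tested genes of the sorting gate 1, Itga2b, fell in both edgeR fits, beside 0.147% of all genes with all libraries and 0.761% without mutant C. DESeq2 called 1 lower and limma-voom 2 lower, beside 0.532% and 2.27% of all genes. Of 13 genes of common and granulocyte-monocyte progenitors 0 were called by edgeR with all libraries (1 at an unadjusted p under 0.05, 0 called by DESeq2, and 1 higher and 1 lower by limma-voom), and Myb, a progenitor transcription factor, fell without mutant C (log2 change -0.57, edgeR adjusted p = 0.020, against -0.76 and 0.58 with all libraries). Myb was 1 of 13 tested there, beside 0.761% of all genes called lower.

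The genes with the profile most like each factor over the 6 libraries were found by the root mean square distance between log2 CPM centred on each gene's mean, among 10041 genes with a mean of at least 50 counts. Nearest to Gata1 were Cpa3, a mast cell carboxypeptidase gene, at 0.32, Ms4a2, the beta chain of the IgE receptor, at 0.33, and Samd14 at 0.42, followed by the myosin light chain kinase gene Mylk3 and the potassium channel gene Kcnj5. Nearest to Gata2 was Tgfbr3, which encodes betaglycan, at 0.08, and Zfpm1 was the fifth at 0.20, after Cd55, Slc18a2 and Chdh. Tgfbr3 had 2.86, 4.92 and 5.46 CPM in mutants C, D and Q and 21.7, 18.9 and 19.8 CPM in wild types A, F and L. Nearest to Zfpm1 were the endocytic adaptor gene Ston2 at 0.14 and the erythroid membrane protein gene Ermap at 0.16, with Gata2 the fifth at 0.20. Gata3 was nearest to Tox at 0.26, and 1 of its 5 nearest genes was kept without mutant C, against 4 for Gata1 and 3 each for Gata2 and Zfpm1. Without mutant C Gata2 and Zfpm1 were no longer among each other's 5 nearest genes, and the nearest to Gata2 was Itga2b at 0.04.

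**Figure D5:**
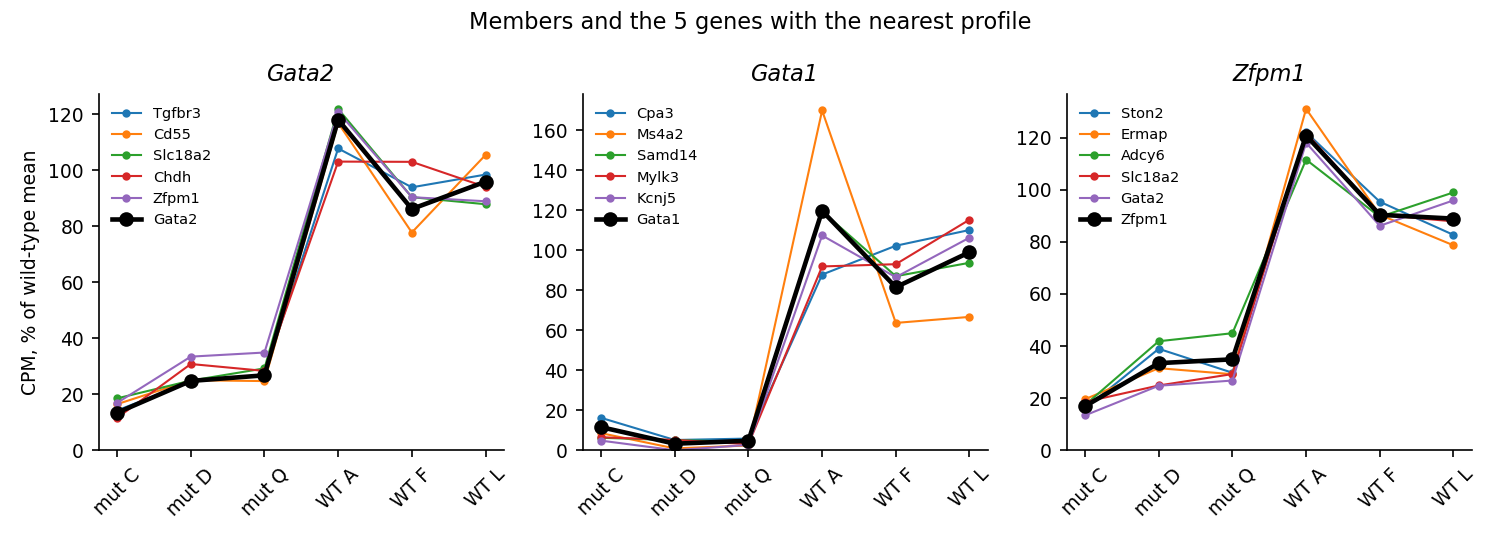
CPM in percent of the wild-type mean for each library, mutants on the left, for Gata2, Gata1 and Zfpm1 (black) and the 5 genes nearest to each. Lines join libraries to guide the eye and stand for no order. The Gata1 panel lies under 20% in every mutant, whereas in the Gata2 and Zfpm1 panels mutants D and Q lie above mutant C.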

How the data were processed

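The authors deposited expected counts, RSEM's estimate of the reads of each gene, with no normalization, per the file headers. TPM and FPKM were deposited by the authors, per the file headers, and correct for gene length. The gene length in bases was deposited as another column, per the file headers. The build mm10 and the tools RSEM 1.2.18, Bowtie 1.1.1 and CASAVA 1.8.2 are named in the submitters' processing notes. The release of the annotation, like strandedness and read layout, is not given in the sources used here.

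After rounding to whole numbers, the counts were analysed in R 4.3.3 with edgeR 4.0.16 (TMM, filterByExpr with a minimum count of 10, quasi-likelihood F test, Benjamini-Hochberg adjustment over all genes, threshold 0.05), mutant over wild type with 3 libraries each. The filter left 12222 genes, or 12614 without mutant C. Alternatives were DESeq2 size factors, no count filter, DESeq2 1.42.0, limma-voom with sample weights (limma 3.58.1), a loess offset on gene length, and each library left out. The code was tested on simulated counts. Ratios and sums used log2(TPM + 0.1) and exact permutation tests, and FPKM was an alternative to TPM there. Between libraries of a group the chi-square per gene was at least 9.25, above counting noise, so each library counted as 1 sample.

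Identifiers were named from a table that matched 24448 of 24815. Positions come from GENCODE M21, and promoters from RefSeq (GRCm38.p6), which held 4 of the 5 genes. The members and gene lists were chosen with earlier results of these data known. Named genes were the 5 members, up to 6 called genes per list by smallest p, the 2 most abundant members of an uncalled list, the 3 most abundant markers of other cell types and the 5 nearest profiles per member. Cd48, Kit, Tal1, Mpo, Cd3e, Cd2, Ep300, Hbb-y, Tpsb2, Cma1, Mcpt4 and Mcpt8 fall outside this rule and were picked once their values had been seen.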

Additional observations from a re-analysis of the deposited data

How the results depend on the processing

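Gata1, Gata2 and Zfpm1 kept a negative log2 change under every alternative run. Without a count filter edgeR called Gata1 (-4.06, adjusted p = 0.020) and Gata2 (-2.19, 0.047). With a length offset it called Gata1 (-4.27, 0.0047) and Gata2 (-2.05, 0.0078) but not Zfpm1 (-1.83, 0.11). DESeq2 called Gata1 (-4.0, 1.7e-14), Gata2 (-2.17, 9.8e-09) and Zfpm1 (-1.78, 4.2e-05), and limma-voom gave -4.40 (5.6e-05), -1.84 (5.1e-05) and -1.42 (1.4e-04). Leaving out 1 library at a time gave -4.61 to -3.72 for Gata1 (adjusted p 6.6e-04 to 0.33), -2.38 to -1.97 for Gata2 (0.0019 to 0.38) and -1.98 to -1.56 for Zfpm1 (0.0059 to 0.77), each called only without mutant C. Gata3 ran from -0.43 to 0.39 and turned negative without mutant Q (-0.43) and without wild type A (-0.25), uncalled throughout. Genes called lower numbered 18 in the main analysis, 35 without a filter, 53 with the length offset, 98 by DESeq2 and 277 by limma-voom, and 0 to 96 with a library left out. Genes called higher numbered 1, and 5 with the length offset, 26 by DESeq2, 80 by limma-voom and 0 to 10 with a library left out. Genes of all lists together numbered 6, and 13 without a filter, 16 with the length offset, 24 by DESeq2, 39 by limma-voom and 0 to 22 with a library left out. Calls were made only when mutant C was the library left out, and the cause was not tested. The ratios and sums kept their direction under both other pseudocounts, FPKM and each library left out, where Gata1 to Gata2 ran from -2.32 to -1.23, Zfpm1 to Gata1 from 1.74 to 2.63, Zfpm1 to Gata2 from 0.31 to 0.51, Gata3 to Gata2 from 1.82 to 2.55, the GATA sum from -3.51 to -2.51 and the FOG sum from -2.73 to -1.76, both smallest without mutant C. With a pseudocount of 1 TPM the Gata1 to Gata2 difference was -1.1 (exact permutation p = 0.4). No paired analysis was possible because the replicate letters differ between the groups. Depth limits Zfpm2, at 0 to 4 counts per library, which was not tested.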
